A study of Homo sapiens with 2 samples.

Results

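To examine where NUDT21 lies at genes of the NOTCH pathway in a leukemia line, CUT&Tag peaks were collected at 10 genes chosen by name. They were the receptors NOTCH1, NOTCH2 and NOTCH3, the nuclear partners RBPJ and MAML1, and the target or feedback genes HES1, HES4, DTX1, NRARP and PTCRA. All were found by gene name in GENCODE release 44, among 20033 protein-coding genes. For each gene, peaks within 3 kb of any annotated transcript start, over the gene body, and up to 1 kb past the gene end were taken from both lists. There were 2 replicate samples of the established cell line J.gamma1, a derivative of Jurkat cells from a human T-cell leukemia (T-ALL), and the labels name no treatment. NUDT21, the target of the antibody in both, binds UGUA in RNA as part of a cleavage factor and helps to choose polyadenylation sites. CUT&Tag tethers a DNA-cutting transposase to the antibody, so that sequenced fragments come from chromatin near the target. The replicates formed 1 group of 1 line, no library with another antibody was analysed here, and a peak is not a measure of expression. With 2 samples of 1 group no test between conditions could be made, so values are given for each replicate and set beside those of all protein-coding genes.

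In NOTCH signalling, a ligand on a neighbouring cell triggers cuts in the receptor by ADAM proteases and gamma-secretase. The freed intracellular part enters the nucleus, joins the DNA-binding protein RBPJ and a Mastermind coactivator such as MAML1, and switches on target genes. The pathway drives T-cell commitment in the thymus, and activating NOTCH1 mutations are common in T-ALL.

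Replicate 1 held 97162 peaks and replicate 2 held 68532, with 92722 and 66671 of them on the main chromosomes. The value used to rank peaks was the fold, the enrichment at the summit (the highest point of a peak) over the background as the peak caller gave it. Its median was 3.97 in replicate 1 and 4.23 in replicate 2. Folds of different lists are not on 1 scale, so each was turned into a percentile, the share of its own list with a lower fold. The fragments at each summit and the control level, the background the caller set them against, were worked back from the fold and p. Replicate 1 had a median of 29 fragments over a control level of 6.0, and replicate 2 had 19 over 3.79. With more fragments per summit, replicate 1 carries the smaller relative counting error at its summits. Pileups of replicate 1 came out on a scale of 0.921, which MACS uses when it is given a control library of another size, and none is described in the methods. At the NOTCH pathway genes many control levels of replicate 1 came out whole, such as 9.0 and 15.0. Others did not, such as 14.6 at RBPJ. In replicate 2, levels such as 2.78, 3.34 and 5.57 recurred at separate peaks, and others, such as 2.6 at NOTCH3, did not. Whether such levels come from a control library or from local background of the same library was not tested. This holds for every fold given here. Of the genes used as lineage markers, promoter peaks were found in both lists at 8 of 10 T-lineage, 4 of 5 B-cell, 4 of 5 myeloid and 2 of 5 erythroid genes, so peaks did not set the T lineage apart.

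A promoter peak, one within 3000 bp of a start, was present at 9 of the 10 NOTCH pathway genes in replicate 1, against 69.8% of all protein-coding genes. In replicate 2 it was present at 8, against 57.9%. The 8 genes with one in both replicates were NOTCH1, NOTCH3, RBPJ, MAML1, HES4, DTX1, NRARP and PTCRA, against 57.0% of all genes. NOTCH2 had a promoter peak in replicate 1, and HES1 had no peak of any class in either list, as was true of 25.2% of all genes. Each replicate gave 52 peaks at these genes, and 35 of those of replicate 1 and 46 of those of replicate 2 fell in 31 regions that both shared. The share of replicate 1, 67.3%, was above that of its whole list, 56.4%, and the share of replicate 2, 88.5%, was near that of its list, 85.7%. Several peaks of a gene can fall in 1 region. All 11 NOTCH1 peaks of replicate 2 counted as shared, most of them in the region of 1 long peak of replicate 1. Most summits were intronic, 33 in replicate 1 and 27 in replicate 2, and coding exons held 10 and 13. NOTCH3 alone gave 14 and 16 of the 52 peaks. The same split was not computed over the peaks of all genes, so these counts do not set the 10 genes apart. Peaks thus lay along the genes as well as at their starts, as the map of peaks by gene shows.

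**Figure D1:**
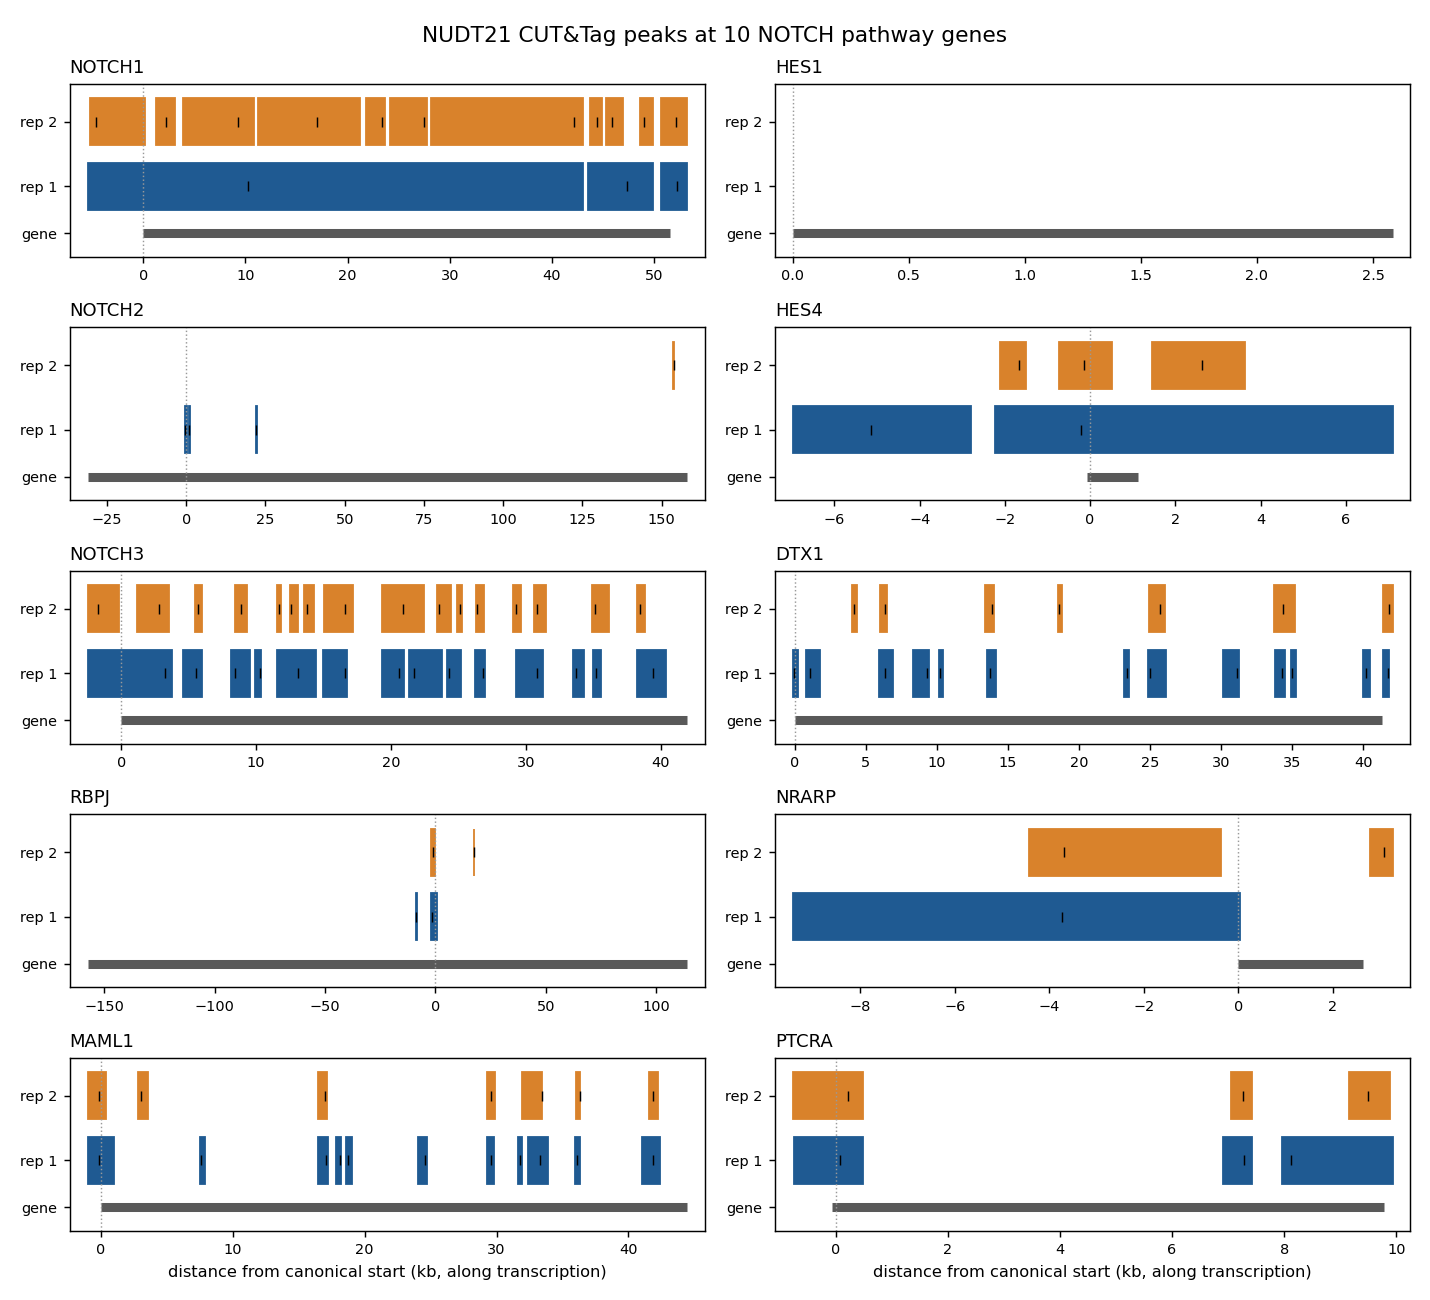
Each panel shows 1 gene (grey bar) with the peaks of replicate 1 (blue) and replicate 2 (orange), and the x axis is the distance from the canonical start in kb along transcription. Black ticks are summits and the dotted line is the start; NOTCH1 is nearly filled in both replicates, while HES1 is empty.

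The strongest promoter peak of each gene spanned nearly the whole range of the lists. NOTCH3 was at percentile 99.6 in replicate 1 and 99.2 in replicate 2, MAML1 at 99.7 and 98.9, and NOTCH1 at 99.3 and 93.0. These 3 genes passed percentile 90 in both replicates, which 17.0% of all genes did. HES4 was at percentiles 94.5 and 56.2, RBPJ at 79.1 and 69.1, and NRARP at 58.8 and 82.9. DTX1 was lower, at 68.0 and 42.2, and PTCRA was at the bottom of the order, at 40.3 and 9.78. As means ± SD over the 2 replicates, NOTCH3 was at 99.4 ± 0.22 and MAML1 at 99.3 ± 0.58, and they changed places between the lists. NOTCH1 (96.1 ± 4.46) was below both and above the other 5 in each list. HES4 (75.4 ± 27.1), RBPJ (74.1 ± 7.07) and NRARP (70.9 ± 17.1) stood in opposite order in the lists. DTX1 (55.1 ± 18.3) was below HES4 and RBPJ in each list and changed places with NRARP. PTCRA (25.1 ± 21.6) was lowest in each list. Across all genes the SD of a single replicate was 15.8 percentile points, wider than the gaps among NOTCH3, MAML1 and NOTCH1 and among HES4, RBPJ and NRARP. That SD pools genes of all ranks and includes a median offset of 4.09 points between the lists. The SDs of NOTCH3, MAML1 and NOTCH1 themselves were smaller. The median over the genes with a promoter peak was 89.4 in replicate 1, against 82.2 over all genes, and 76.0 in replicate 2, against 77.9. The median of the 8 means was 74.7, against 81.3 over the 11425 genes that had such means, and ranked by −log10 p it was 91.3 against 86.6. The direction thus depended on the replicate and on the value ranked. NOTCH3 and MAML1 stood above 96.0% and 95.4% of those genes by fold.

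**Figure D2:**
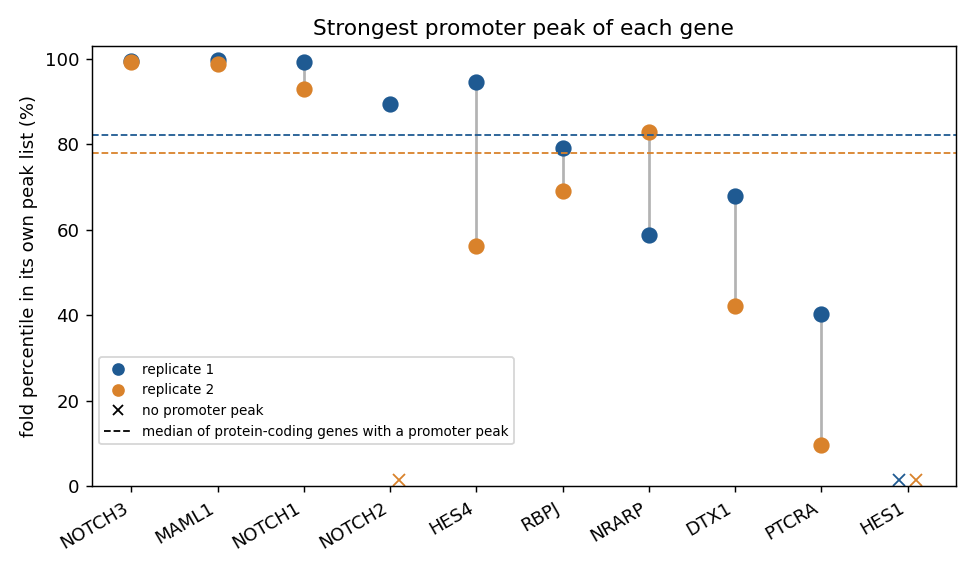
The y axis is the fold percentile of the strongest promoter peak of each gene in its own list, with blue points for replicate 1, orange points for replicate 2 and crosses for no promoter peak. Dashed lines are the medians of all protein-coding genes with a promoter peak, 82.2 and 77.9; NOTCH3, MAML1 and NOTCH1 lie above both lines in both replicates.

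NOTCH1, the receptor most often mutated in T-ALL, stood apart from the other genes of the 10 by the length of its signal. The gene (ENSG00000148400.13) lies on the minus strand at chr9:136494433-136546048 of hg38 and has 11 annotated starts. In replicate 1 a single peak of 48539 bp, chr9:136502955-136551493, ran from position -5445 to position 43093 relative to the canonical start, counted in bp along transcription. Of the 92722 peaks in that list, 3 were longer, the longest at 57439 bp. In replicate 2 the same stretch was broken into separate peaks, the longest of them 14878 bp, and 36 peaks of that list were longer. Peaks covered 97.5% of the gene in replicate 1 and 85.8% in replicate 2, against medians of 2.81% and 1.11% over all genes. These shares were at percentiles 97.4 and 97.5 among genes. A peak of 10 kb or more touched NOTCH1 in both replicates, the only one of the 10 genes of which this was true, and 1.36% of all genes were touched so.

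At the NOTCH1 summit of replicate 1, 10223 bp inside the gene in an intron, the fold was 14.4. There were 174 fragments (95% exact Poisson interval 149 to 202, counting error only) over a control level of 10.2. This summit was 10172 bp from any start, and its peak counted as a promoter peak through its length. The 11 peaks of replicate 2 had folds from 4.72 to 7.65. The strongest, chr9:136535230-136542181, was a gene-body peak with 37 fragments (26.1 to 51) over 3.97, and its summit was 932 bp from that of replicate 1. The strongest promoter peak of replicate 2, with a fold of 7.34, had 50 fragments (37.1 to 65.9) over 5.95, and its summit was 6768 bp from that of replicate 1. A further peak of replicate 2 had a fold of 7.31 and 47 fragments, with its summit 42212 bp inside the gene. The highest fold thus lay in the same part of the gene in both replicates, but peaks of near equal fold in replicate 2 lay elsewhere. By −log10 p the peak with a fold of 7.34 was the strongest of replicate 2, at 29.2 against 23.7 for that with 7.65. No peak of replicate 2 reached the percentile of replicate 1. The summit of replicate 1 lay in a tandem repeat. Of the 20-base words in the 1001 bp around it, 45.8% occurred more than once there. The share was 0.0% around the replicate 2 summits with folds of 7.65 and 7.34, and 1.81% over the whole 48539 bp peak. The part of the repeat in the fold at that summit was not tested. The 101 bases around the strongest summit by fold of each replicate are given for this contrast, on the strand of the gene. In the first, a stretch of 34 bases in capitals recurs 52 bases further on.
NOTCH1 replicate 1, hg38 chr9:136535775-136535875, minus strand: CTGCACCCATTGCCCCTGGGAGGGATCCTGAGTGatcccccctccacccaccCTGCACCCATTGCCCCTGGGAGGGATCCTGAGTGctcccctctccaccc
NOTCH1 replicate 2, hg38 chr9:136536707-136536807, minus strand: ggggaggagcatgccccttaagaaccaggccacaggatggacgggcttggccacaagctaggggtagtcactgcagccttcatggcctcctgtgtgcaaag
The long peak also covered starts of NALT1, ENSG00000227512, MIR4673 and MIR4674, so its signal cannot be assigned to NOTCH1 alone. With the canonical start alone, an alternative chosen after seeing the data, NOTCH1 was at percentile 88.8.

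**Figure D3:**
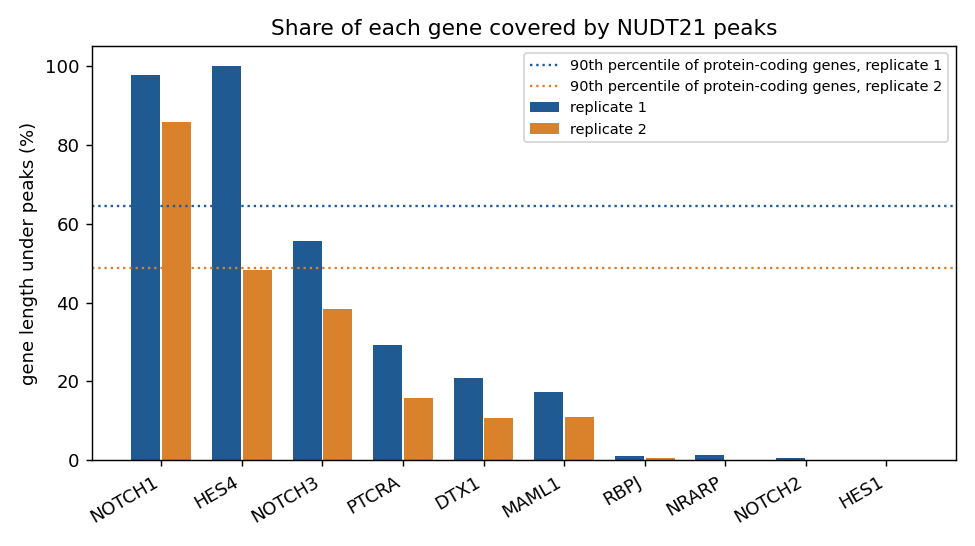
Bars give the percent of each gene's length under peaks, in blue for replicate 1 and orange for replicate 2. Dotted lines are the 90th percentile of all protein-coding genes, 64.5% and 48.7%; NOTCH1 passes its line in both replicates and HES4 in replicate 1.

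NOTCH3, a receptor that is also a NOTCH target in T-ALL, carried the most peaks, 14 in replicate 1 and 16 in replicate 2. The gene (ENSG00000074181.9) is on the minus strand at chr19:15159038-15200995. Peaks covered 55.5% of it in replicate 1 and 38.3% in replicate 2, and 10 regions were shared. The strongest peak of replicate 1, chr19:15197270-15203486, had a fold of 16.4, with 95 fragments (76.9 to 116) over a control level of 4.38. That of replicate 2, chr19:15197481-15199808, had a fold of 12.2, with 43 fragments (31.1 to 57.9) over 2.6. Both summits lay in an intron, 3254 and 2813 bp inside the canonical start, so the strongest signal was downstream of the start in each replicate. At the start itself, replicate 1 had the same peak of 6217 bp, and replicate 2 had a weaker separate peak upstream, with a fold of 4.16. With promoters narrowed to 1000 bp, the mean percentile of NOTCH3 was 82.7. The sequence around the summits is shown because the window of replicate 1 was the only one among the strongest promoter summits of these genes, 9 in replicate 1 and 8 in replicate 2, to hold TGGGAA, the core of the RBPJ site (in capitals).
NOTCH3 replicate 1, hg38 chr19:15197691-15197791, minus strand: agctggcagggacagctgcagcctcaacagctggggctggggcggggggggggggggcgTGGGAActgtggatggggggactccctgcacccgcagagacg
NOTCH3 replicate 2, hg38 chr19:15198132-15198232, minus strand: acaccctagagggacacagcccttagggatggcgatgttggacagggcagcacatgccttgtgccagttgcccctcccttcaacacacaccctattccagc

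NOTCH2, another receptor, differed between the replicates. The gene (ENSG00000134250.21) spans 189227 bp on the minus strand at chr1:119911553-120100779. In replicate 1 its promoter held a peak of 637 bp, chr1:120069453-120070089, with a fold of 6.54 (percentile 89.4) and 77 fragments (60.8 to 96.2) over a control level of 10. Replicate 2 had no promoter peak, and its nearest peak to the canonical start was 106494 bp away. A second promoter peak of replicate 1 was weak, with a fold of 2.37 (percentile 4.16). Each replicate had 1 peak in the gene body, 22122 and 153924 bp inside the start, so no region was shared. The promoter sequence occurs in near copies at 4 other places on chromosome 1, with identities from 96.6% to 99.4%, at the starts of NOTCH2NLR, NOTCH2NLA, NOTCH2NLB and NOTCH2NLC, which arose by duplication of part of NOTCH2. Starts of NBPF26, NBPF10, NBPF14 and ENSG00000286185 also lay within 1000 bp of these copies, in that order, so peaks there cannot be assigned to 1 gene. All 4 copies had a peak in replicate 1, with folds from 4.24 to 4.72. In replicate 2, where NOTCH2 had none, 3 copies had peaks, with folds from 2.29 to 3.64. Reads from such sequence may be placed at any of its copies, so the NOTCH2 promoter cannot be told apart from them here. The window around its summit in replicate 1 is shown as the sequence that these loci nearly share.
NOTCH2 replicate 1, hg38 chr1:120069886-120069986, minus strand: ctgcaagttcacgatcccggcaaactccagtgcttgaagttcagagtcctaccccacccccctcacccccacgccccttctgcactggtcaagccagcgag

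MAML1, the Mastermind coactivator that docks on the complex of RBPJ and the receptor, had its strongest peak at the start, over a low control level. The gene (ENSG00000161021.13) is on the plus strand at chr5:179732822-179777283. Its promoter peak had a fold of 18.3 in replicate 1, from 70 fragments (54.6 to 88.4) over a control level of 2.58. In replicate 2 the fold was 11.2, from 28 fragments (18.6 to 40.5) over 1.59. The summits were 116 and 180 bp before the start, so the signal sat at the start itself in both replicates. An intronic peak further downstream was also shared. It lay at chr5:179762111-179762647 in replicate 1, with a fold of 11.4 (percentile 98.4), and at chr5:179762125-179762692 in replicate 2, with a fold of 9.29 (percentile 97.5). Its summits were 29596 and 29594 bp from the start. A coding-exon peak had its summit at the same base, 179774704, in both replicates, with folds of 8.46 and 5.66. MAML1 had 11 peaks in replicate 1 and 7 in replicate 2, 6 shared regions, and 17.2% and 11.1% of its length under peaks. The windows around the promoter summit and the intronic summit of replicate 1 are shown as the sites of its highest folds, and neither holds TGGGAA.
MAML1 promoter, hg38 chr5:179732656-179732756, plus strand: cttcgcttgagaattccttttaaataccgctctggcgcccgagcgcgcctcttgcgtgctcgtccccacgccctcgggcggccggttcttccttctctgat
MAML1 intron, hg38 chr5:179762368-179762468, plus strand: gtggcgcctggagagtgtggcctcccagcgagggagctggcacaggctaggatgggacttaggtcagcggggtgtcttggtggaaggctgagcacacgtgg

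RBPJ, the DNA-binding protein through which all NOTCH receptors act, had 1 promoter peak per replicate, of middle rank. The gene (ENSG00000168214.22) spans 271677 bp on the plus strand at chr4:26163455-26435131 and has 43 annotated starts. The peak was at chr4:26318886-26321708 in replicate 1, with a fold of 5.38 and 90 fragments (72.4 to 111) over a control level of 14.6. In replicate 2 it was at chr4:26319112-26320652, with a fold of 4.98 and 39 fragments over 7.03. Both control levels were more than the medians of the lists, so a high fragment count went with a middle fold. One further peak per replicate lay in the gene body at different places, with folds of 6.01 and 3.96. RBPJ and MAML1, which act in the same complex, therefore differed in fold percentile in both replicates. This depended on the value used. By −log10 p their mean percentiles were nearer, 91.7 and 97.2. RBPJ also had more fragments at its summit than MAML1, which had 70 in replicate 1 and 28 in replicate 2.

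Among the bHLH repressors that NOTCH switches on, HES4 and HES1 gave opposite pictures. HES4 (ENSG00000188290.11, minus strand, chr1:998962-1000172) is a short gene beside ISG15. In replicate 1 a peak of 9337 bp, chr1:992999-1002335, covered all of it, with a fold of 7.92 and 102 fragments (83.2 to 124) over 11. In replicate 2 the peak at its start, chr1:999590-1000839, covered 48.1% of the gene, with a fold of 4.43 and 38 fragments over 7.80. The percentiles, 94.5 and 56.2, were the farthest apart of the 8 genes. The same peaks lay within 3 kb of ISG15 starts and cannot be assigned to 1 of the genes.

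HES1 (ENSG00000114315.4, plus strand, chr3:194136148-194138732), the best known direct target of NOTCH, had no peak at its start, body or end. Its nearest peak was 52513 bp away in replicate 1, with a fold of 2.203, and 189362 bp away in replicate 2, with a fold of 2.52. The lists hold only regions past the threshold of the caller, the lowest −log10 q being 2.00 in each, so signal under it was not detectable here. The gene had 0 near copies elsewhere in the genome, and 0.0% of its 20-base words recurred. Its promoter sequence is shown because it holds the RBPJ core in 2 places although no peak lay there. In the RefSeq table of promoters (GRCh38.p14, from 250 bases before to 50 after each start), TGGGAA (capitals) began at positions -84 and -70, counting the HES1 start as 0. The 250 bases before the start are given.
HES1, GRCh38.p14 chr3:194135898-194136147, plus strand: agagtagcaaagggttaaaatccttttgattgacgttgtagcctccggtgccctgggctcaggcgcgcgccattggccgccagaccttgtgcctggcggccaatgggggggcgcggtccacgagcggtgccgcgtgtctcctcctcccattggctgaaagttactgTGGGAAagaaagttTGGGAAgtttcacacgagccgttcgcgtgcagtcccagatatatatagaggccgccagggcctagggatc

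The feedback genes were of middle or low rank and held their signal away from the start. DTX1 (ENSG00000135144.8, plus strand, chr12:113056730-113098028) encodes a ubiquitin ligase of the Deltex family. It had 13 peaks in replicate 1 and 7 in replicate 2, and 5 regions were shared. At the canonical start, replicate 1 had weak peaks with folds of 3.08 and 2.18, and replicate 2 had none within 3 kb. The strongest promoter peak of both replicates lay near an internal start, 34300 and 34362 bp inside the gene, with folds of 4.69 and 3.98. With starts of protein-coding transcripts only, DTX1 no longer had a promoter peak in both replicates. With the canonical start alone, chosen after seeing the data, DTX1 lost its promoter peak in replicate 2. NRARP (ENSG00000198435.4, minus strand, chr9:137299631-137302271) encodes a small ankyrin repeat protein that limits NOTCH output. A long peak lay upstream of it in both replicates, with a fold of 4.31 and 9462 bp in replicate 1 and a fold of 5.22 and 4085 bp in replicate 2. Its summits were 3735 and 3687 bp before the start. The strongest peak of replicate 2, with a fold of 5.84, lay just past the gene end instead, within the 3000 bp of the start of this short gene. Measured from the summit, NRARP and NOTCH1 no longer had a promoter peak in both replicates, which left 6 genes.

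PTCRA, which encodes the pre-T-cell receptor alpha chain and is a NOTCH target in thymocytes, had the lowest rank. The gene (ENSG00000171611.10) is on the plus strand at chr6:42915989-42925838. Its promoter peak was placed almost identically in the replicates, at chr6:42915314-42916531 and chr6:42915289-42916543. The fold was 3.69 in replicate 1, with 63 fragments (48.4 to 80.6) over a control level of 15.0, and 2.96 in replicate 2, with 30 fragments over 9.47. The fragment counts were above the medians of both lists, and the control levels were higher by more. Ranked by −log10 p instead of fold, PTCRA was at percentile 61.8 instead of 25.1. In replicate 2 a second, stronger peak lay at the gene end, chr6:42925212-42925944, with a fold of 6.15 (percentile 85.9), and the region was covered by a weaker peak in replicate 1, with a fold of 3.77.

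**Figure D4:**
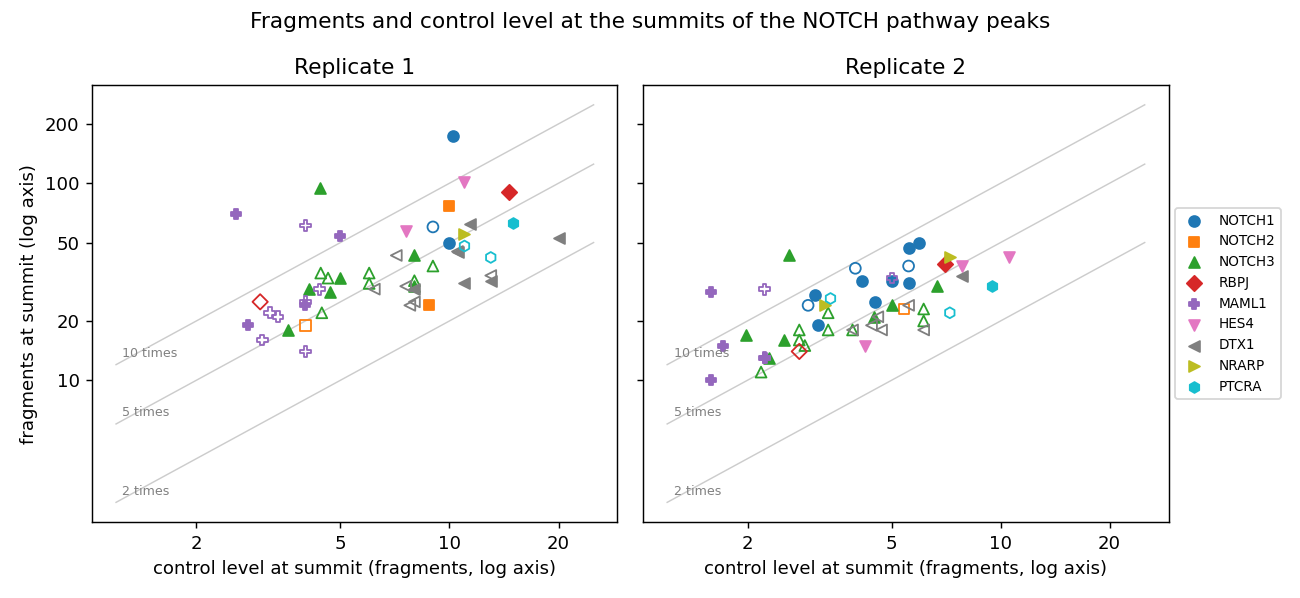
Each point is 1 peak of a NOTCH pathway gene, with the control level at its summit on the x axis and the fragments at its summit on the y axis, both on log axes; filled points are promoter peaks and grey lines mark 2, 5 and 10 fragments per control fragment. The promoter peaks at the start of MAML1 sit at control levels of 2.58 and 1.59, and those of PTCRA at 15.0 and 9.47.

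Since NUDT21 acts at polyadenylation sites, peaks at gene bodies and gene ends were also counted. A peak in the gene body outside promoters was present in both replicates at 7 of the 10 genes, NOTCH1, NOTCH2, NOTCH3, RBPJ, MAML1, DTX1 and PTCRA, against 28.6% of all genes. For NOTCH2 and RBPJ these peaks were at different places in the replicates. HES4, HES1 and NRARP span 1211, 2585 and 2641 bp, so all their bases lie within 3000 bp of a start. No such peak was possible there, and the 7 genes were all those that could have one. The share of all genes was not matched for gene length. A gene-end peak, with its summit within 1000 bp of the annotated end and outside promoters, was present in both replicates at 2 genes, NOTCH1 and DTX1, against 7.33% of all genes. The NOTCH1 peak was at chr9:136492778-136495333 in replicate 1, with a fold of 5.63 and 60 fragments over 9.0. In replicate 2 it was at chr9:136492793-136495341, with a fold of 5.94 and 38 fragments over 5.57. Its summits were 646 and 585 bp past the gene end, so it was placed alike in both replicates. The DTX1 peak was weaker, its folds being 2.63 and 3.34, and its summits lay 453 and 502 bp past the end. The count of gene ends rests on few genes: within 500 bp there were 0 genes and within 3000 bp there were 5. The window around the NOTCH1 gene-end summit of replicate 1 is shown as that of the stronger of the 2 shared end peaks, and it holds neither TGTA, the DNA form of UGUA, nor TGGGAA.
NOTCH1 gene end, hg38 chr9:136493737-136493837, minus strand: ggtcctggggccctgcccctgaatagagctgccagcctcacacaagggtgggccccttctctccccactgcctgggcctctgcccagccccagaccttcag

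The RBPJ core TGGGAA (or TTCCCA, its reverse complement) and TGTA (or TACA) were then searched on both strands. A match to the core cannot overlap one to TGTA or TACA, while TGTA and TACA can overlap each other and then count as 1 window. Of the 10 genes, 9 had entries in the RefSeq promoter table, with 13 windows of 300 bases among them. TGGGAA was in 3 of the 13, those of HES1, HES4 and one of RBPJ, against 24.0% of 35116 promoters. In the 101 bases around the strongest promoter summits it was in 1 of 9 windows in replicate 1 and 0 of 8 in replicate 2, against 8.13% and 8.53% of all peaks. TGTA was in 2 of 9 and 1 of 8 windows, against 31.0% and 31.6% of all peaks. In the promoter windows TGTA was in 6 of 13, against 58.5% of the 35116 promoters. Of the 3 genes with the core in their promoter, 2 carried promoter peaks in each list, and HES1 had none. NOTCH1, NOTCH3, MAML1, NRARP and PTCRA, whose promoter windows lacked the core, also carried promoter peaks in each list, as did 57.0% of all genes. The core thus did not set the genes with promoter peaks apart. A match says that the letters are present, not that a protein binds there. The median GC of the summit windows was 67.3% in replicate 1 and 61.9% in replicate 2, against 61.4% and 60.4% over all peaks. The shares and medians of all peaks include peaks outside promoters, while the windows of these genes are promoter peaks only, so the sets are unlike.

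To place the 10 genes in their pathway, 51 other NOTCH pathway genes were grouped by role. A promoter peak in both replicates was present at 36 of them, 70.6%, against 57.0% of all genes. By role these were 4 of 5 ligands, 4 of 5 glycosyltransferases that modify the receptors, 8 of 9 proteases or gamma-secretase subunits, 2 of 6 coactivators, 6 of 8 corepressors, 7 of 10 genes of trafficking and turnover, and 5 of 7 bHLH target genes. The fourth receptor, NOTCH4, had a promoter peak in replicate 1 alone. Another 8 genes also had one in replicate 1 alone: DLL1, ADAM10, MAML3, SNW1, NUMB, DTX4, NEURL1 and HEY1. None of the 51 had one in replicate 2 alone. There was no promoter peak in either replicate at POGLUT1, MAML2, KAT2B, CIR1, L3MBTL3 and HEY2. Of the Mastermind coactivators, MAML1 alone was therefore marked in both replicates.

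The highest means were those of SPEN, the corepressor that binds RBPJ without the receptor (percentile 99.5, folds of 15.4 and 13.6), and HDAC1, a histone deacetylase (99.5, 22.3 and 11.7). They were followed by MIB2, a ubiquitin ligase for ligands (99.2, 18.4 and 10.7), RFNG, a Fringe glycosyltransferase (99.0, 14.8 and 10.6), and HES7 (97.97, 9.43 and 11.5). The lowest were PSEN2, a catalytic subunit of gamma-secretase (28.9, 4.25 and 2.22), DTX2 (39.1, 4.96 and 2.75) and HEYL (39.3, 3.52 and 4.01). Percentile 90 was passed in both replicates by 11 of the 51 genes, 21.6%, against 17.0% of all genes, and 4 of these were corepressors. A gene-body peak in both replicates was present at 18 of the 51, 35.3% against 28.6% of all genes. A gene-end peak was present at 3, 5.88% against 7.33%, and a peak of 10 kb or more at 1, the corepressor CTBP1, 1.96% against 1.36%. These shares were near those of all genes.

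**Figure D5:**
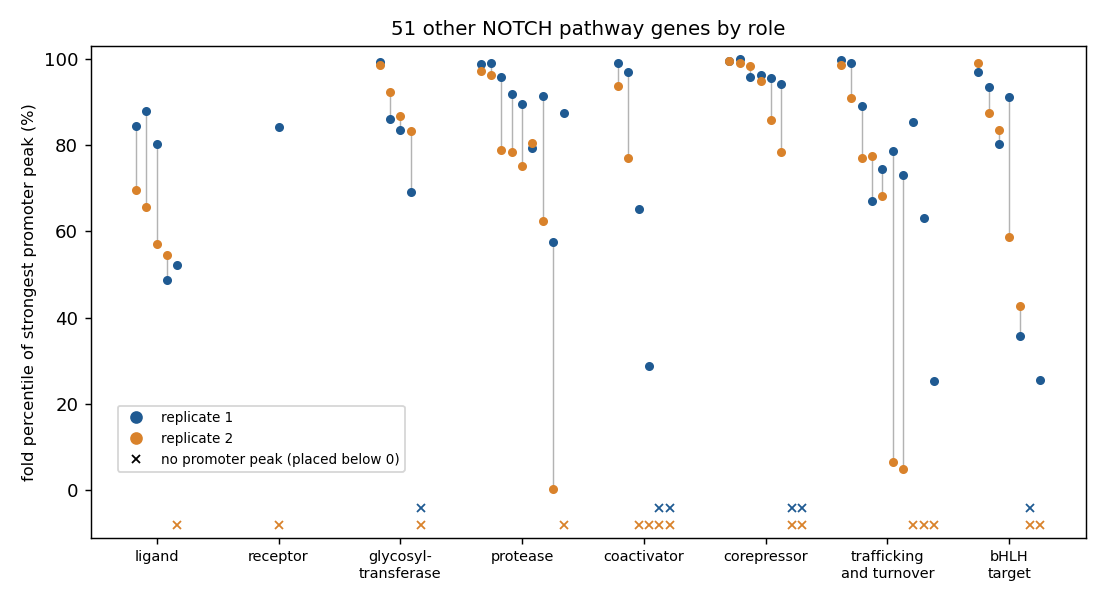
The y axis is the fold percentile of the strongest promoter peak of each of 51 other NOTCH pathway genes, grouped by role on the x axis, with replicate 1 in blue, replicate 2 in orange and crosses below 0 for no promoter peak. Corepressors with a peak have a median mean percentile of 96.3, and the single receptor has a point in replicate 1 only.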

How the data were processed

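CUT&Tag with a NUDT21 antibody was done on 2 replicates of J.gamma1, and the labels number them without stating what separates them. According to the methods and the submitters' processing notes, reads were trimmed with fastp, aligned to hg38 with Bowtie2 (2.2.5), cleared of duplicates with Picard and passed to MACS3 (3.0.1), which called peaks in each replicate. For every peak the deposited lists gave a fold (a ratio), a −log10 p and a −log10 q at the summit. The deposited score repeated the −log10 q of the authors and was not used. Every sequence name of both lists was in the hg38 reference used here.

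Peaks were assigned with GENCODE release 44 (python 3.11.15, pandas 2.3.3). A peak within 3000 bp of any start of a gene was a promoter peak, another peak touching the gene was a gene-body peak, and a peak touching only the 1 kb after it was a past-end peak. A gene-end peak lay outside promoters with its summit within 1000 bp of the end. Percentiles were ranks within a list, with ties shared evenly. Fragments and control level were solved from the fold, (pileup + 1)/(control + 1), together with the Poisson p of MACS. Pileups came out whole, within 0.02, for 99.968% of peaks in replicate 1, after scaling by 0.921, and for 99.997% in replicate 2. Read totals were not used, so absolute depth is unknown. The methods describe no control library, although a scaled pileup arises when one is given. Near copies were searched with minimap2 (2.31-r1302) at 90% identity over 80% of the sequence. Solving and assignment were tested on simulated data.

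No p-value was computed. The 10 genes, the 51 other genes and the markers were chosen with earlier results of these data known. All 10 genes are named. Of the 51, those with a promoter peak in neither replicate or in 1, the 5 highest and the 3 lowest are named. Windows were chosen for printing after their values were seen. Alternatives used promoters within 1000 bp, distance from the summit, protein-coding or canonical starts, other gene-end distances, ranking by −log10 p, a −log10 q from 5 up, only the 10000 peaks of highest −log10 p, stricter sharing and each replicate alone.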

Additional observations from a re-analysis of the deposited data

How the results depend on the processing

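No p-value was computed. Of 59 recomputed counts and medians 45 moved little, with counts within 1.5 times and medians by less than 7.63 points, the SD between the replicates. Of 80 percentiles of single genes 65 moved by less than the SD of that gene over the 2 replicates. With 1 replicate alone this holds by construction, so those settings cannot show stability. Genes that lost their promoter peak in a setting were not among the 80. With a −log10 q of at least 5, the gene-end count fell from 2 to 1 gene and the median percentile from 74.7 to 61.9. With the 10000 peaks of highest −log10 p in each list, so with fewer peaks, promoter peaks in both replicates were left at 4 genes (NOTCH1, NOTCH3, RBPJ and MAML1) and at 17 of the 51 other genes. There the gene-body count was 2, the gene-end count 1, the shared regions 7 and the median percentile 84.0, with NOTCH1 at 73.3 and RBPJ at 7.90 of that shorter list. Gene ends within 500 bp gave 0 genes and within 3000 bp gave 5. Ranking by −log10 p gave a median percentile of 91.3, with RBPJ at 91.7, DTX1 at 81.8 and PTCRA at 61.8. The cause was not tested. Shared regions numbered 18 with a reciprocal overlap of 50% of each peak (fewer by its stricter rule) and 19 with summits within 200 bp.

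With each replicate alone, the median percentile was 76.0 to 89.4, the higher from replicate 1, where NOTCH2 also counts. The promoter count was then 8 to 9, the gene-body count 7 to 7, the gene-end count 2 to 3 and the count of other genes 36 to 45, and shared regions gave no value. Starts of protein-coding transcripts alone gave 7 genes with a promoter peak in both, without DTX1. Canonical starts alone, chosen after seeing the data, gave the same 7 genes. No paired analysis was possible because the study had a single group and no test was made. The part of depth in the shorter list of replicate 2 was not tested, nor was the specificity of the peaks, since no sample with another antibody was analysed here.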
